A study of Mus musculus with 9 samples.

Results

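The cytoplasmic ribosomal protein genes were described on 9 single-colour Illumina arrays of C57BL/6 mouse cells. Members were all probes whose platform gene symbol starts with Rpl or Rps and a digit, or is Rpsa, Rplp0, Rplp1 or Rplp2, without pseudogene symbols and without the 12 probes for the Rps6k kinases. The rule took 96 of 45281 probes, for 65 of 19057 gene symbols, and used no measured value. Of these, 52 probes stood for 33 large-subunit genes, 33 for 23 small-subunit genes and 8 for 7 paralogues outside the standard set (Rpl3l, Rpl7l1, Rpl22l1, Rpl36al, Rpl39l, Rps4l and Rps27l). The other 3 carried symbols that begin like a ribosomal protein but name other proteins, Rps19bp1 and Rps23rg1, and are kept apart below. The arrays fall into 3 groups of 3: putative female germ cells (PFGC) taken by magnetic sorting, oocytes taken by magnetic sorting, and spermatogonial stem cells (SSC) kept in culture. The labels give no treatment, genotype, age, tissue of origin or sorting antibody, and the series title speaks of SSC that differentiate into putative female stem cells. Whether the replicates are different cultures or different animals is not stated, and the p-values therefore cover only the spread among these samples, part or all of which may be technical.

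Each ribosome is built from ribosomal RNA and a fixed set of proteins, nearly all present in a single copy, so cells make the proteins of both subunits in matched amounts. The messenger RNAs are among the most abundant of growing cells. In vertebrates they begin with a terminal oligopyrimidine (TOP) tract, a C followed by a run of C and T at the very start of the transcript, through which the mTOR pathway holds or releases their translation together. A growing oocyte stores ribosomes for the early embryo, whereas spermatogonial stem cells in culture divide continually. A few mammalian ribosomal proteins have paralogues with restricted expression, such as Rpl3l in striated muscle and Rpl39l in the male germ line.

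The TOP tract can be looked for around the annotated starts of these genes. The 4 promoters below are those of Rps6, the target of the S6 kinases, and of Rps15a, Rpl31 and Rpl4, which had the largest differences among the subunit probes that were higher in the comparisons that follow. They are set beside those of Rps4x, an X-linked gene that also differed, and Rpl3l, which differed in the opposite direction. Each line holds 30 bases before and 16 bases from the start that RefSeq annotates in GRCm38.p6, read along the transcript from 5′ to 3′. Capitals mark every stretch in these lines of a C followed by at least 6 C or T bases, with no other base between.
Rps6: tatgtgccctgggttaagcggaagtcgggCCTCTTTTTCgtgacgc
Rps15a: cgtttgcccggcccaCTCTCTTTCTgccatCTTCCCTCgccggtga
Rpl31: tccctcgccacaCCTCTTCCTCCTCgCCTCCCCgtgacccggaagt
Rpl4: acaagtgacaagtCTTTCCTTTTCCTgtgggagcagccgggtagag
Rps4x: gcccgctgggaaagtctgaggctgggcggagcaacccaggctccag
Rpl3l: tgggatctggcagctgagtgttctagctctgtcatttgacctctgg

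These windows are chr4:86857352-86857397 (minus strand) for Rps6, chr7:118116132-118116177 (minus) for Rps15a, chr1:39367821-39367866 (plus) for Rpl31, chr9:64173357-64173402 (plus) for Rpl4, chrX:102189376-102189421 (minus) for Rps4x and chr17:24727796-24727841 (plus) for Rpl3l. A run covers the annotated start in Rps6 (10 bases), in Rps15a (8 bases) and in Rpl31 (7 bases). Rps15a and Rpl31 hold a further run before it, of 10 and 13 bases. In Rpl4 the run of 13 bases ends before the annotated start, and none was found in these windows of Rps4x and Rpl3l. Rpl3l has a further annotated start, whose window (chr17:24732655-24732700, plus) is not shown and held no run either. Within 25 bases on either side of the start, on the transcript strand only, such a run was present in 28 of 54 promoters of 46 subunit genes (51.9%), in 3 of 8 promoters of 6 paralogues (37.5%) and in 22.8% of all 32851 promoters of the table. A stricter search, for a start that falls exactly on a C followed by 4 C or T bases, matched 9 of the 54 subunit promoters (16.7%) and 2.51% of all promoters. A match describes letters only, and annotated starts can lie a few bases from the base where transcripts begin.

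Between 38.9% and 41.8% of all probes had a detection p-value under 0.01 on each array, and the precision is limited by the 3 arrays per group. All 10 oocyte markers on the array were detected on all 3 PFGC and all 3 oocyte arrays, whereas 6 of the 10 were detected on no SSC array. All 10 spermatogonial markers were detected on every SSC array, and all 8 Sertoli cell markers were as well, with 7 of 8 on every PFGC array and 4 of 8 on every oocyte array. The 3 arrays numbered 3 stood apart: within each group they deviated from their group mean together (correlations of 0.404 to 0.564 over all tested probes). Results are therefore also given without them, or with the replicate number as a block, where that ends or makes a call.

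Ribosomal protein probes were among the brightest on the arrays. Of the 96 probes, 78 for 57 genes were detected on at least 3 of the 9 arrays and entered the tests, and 75 of these were detected on all 9. Levels are log2 of the background-corrected, quantile-normalised signal. The 70 tested subunit probes had a median level of 13.87, against 7.40 for all 19934 tested probes, and 26 of the 100 brightest probes were members, with 48 of those 100 unnamed here. Of the 18 probes that were not tested, 16 were detected on no array. No tested probe remained for Rpl6, Rpl14, Rpl17, Rps20, Rps23, Rpsa, Rpl39l and Rps23rg1, which gives no level for these genes, since a probe can fail where its gene is expressed. Rpl5, Rpl7, Rpl10, Rpl11, Rps27 and Rpl10l were not analysed here.

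Replicates were tight. The median standard deviation within a group was 0.095 for the subunit probes, against 0.178 for all tested probes. Most of this contrast went with brightness. The median standard error of a difference was 0.113 for subunit probes and 0.114 for all tested probes at levels of 14 and over. It was 0.118 and 0.128 at levels of 12 to 14, and 0.152 and 0.167 under 12. The subunit probes are part of all tested probes, and were 32 of the 128 at 14 and over. The brightest member, Rps12, a small-subunit protein, had levels of 15.12, 15.13 and 15.19 in PFGC, 15.10, 15.12 and 15.15 in oocytes, and 15.04, 15.02 and 15.10 in SSC. The dimmest tested member, the paralogue Rpl22l1, had levels of 4.95, 4.74 and 5.79 in PFGC, 5.06, 5.42 and 5.74 in oocytes, and 4.60, 4.96 and 5.36 in SSC. It was detected on 1 PFGC array, 2 oocyte arrays and 1 SSC array.

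Subunit probes took a larger share of the signal in the sorted groups than in SSC. Their share of all background-corrected signal was 6.58, 6.07 and 6.60% in PFGC, 6.22, 6.22 and 6.39% in oocytes, and 5.11, 5.58 and 5.11% in SSC. The 3 SSC arrays lay below all 6 others, and the PFGC and oocyte arrays overlapped. The median subunit level on an array ran from 13.99 to 14.04 in PFGC, from 13.96 to 14.08 in oocytes and from 13.53 to 13.62 in SSC. PFGC and oocytes were sorted and SSC were cultured, so handling and cell type cannot be told apart in either comparison with SSC.

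The mean levels of 3 lists of cell type markers also lay higher on all 6 arrays of sorted cells than on the SSC arrays. The oocyte markers had a mean level on an array of 9.40 to 9.73 in PFGC, 10.05 to 10.12 in oocytes and 4.87 to 5.15 in SSC. The 9 granulosa cell markers had 9.36 to 9.53 in PFGC, 9.55 to 9.58 in oocytes and 7.77 to 7.96 in SSC. Of these 9, 6 were higher and 3 lower in each sorted group than in SSC, 8 were detected on all 3 arrays of either sorted group against 5 in SSC, Amh was detected on no oocyte array, and Foxl2, Nr5a2, Esr2 and Fst were detected on no SSC array. The 7 macrophage and leukocyte markers had 6.27 to 6.42 in PFGC, 6.70 to 6.87 in oocytes and 6.06 to 6.12 in SSC. Of the 6 with a tested probe, 1 was higher in PFGC (16.7%) and 2 in oocytes (33.3%) than in SSC, with none lower. Counted by the brightest probe of each gene, 23.7% and 28.1% of all genes were higher. The median difference of the 6 was -0.09 in PFGC and 0.28 in oocytes. Cd14, the 1 higher in PFGC, was higher by 2.48 there (adjusted p = 9.27e-07) and by 3.24 in oocytes (adjusted p = 7.28e-08, limma). Ptprc was detected on no array, and Adgre1 was detected on no PFGC and no SSC array. The mean level of the fibroblast markers was lower in the sorted groups, at 8.95 to 9.13 in PFGC, 9.08 to 9.13 in oocytes and 9.18 to 9.53 in SSC. Of the 9 with a tested probe, 1 was higher and 4 lower in PFGC than in SSC, and 2 were higher and 3 lower in oocytes. The part of these cell types in the ribosomal protein levels was not tested.

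**Figure D1:**
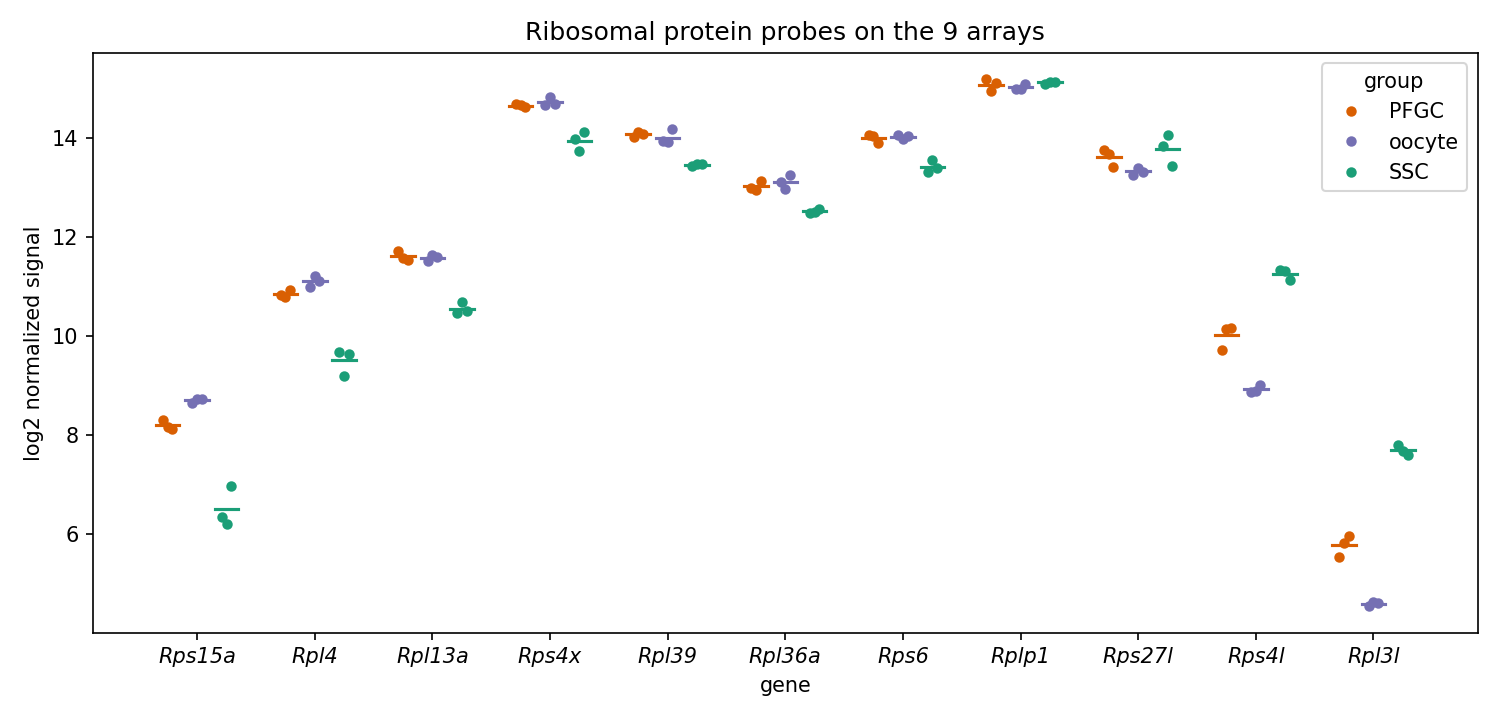
Levels (log2 of the normalised signal) of ribosomal protein probes on the 9 arrays, with PFGC and oocytes left of SSC. Points are single arrays and short lines group means; Rps15a, Rpl4 and Rps4x lie lowest in SSC, and Rps4l and Rpl3l lie highest there.

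In PFGC against SSC, ribosomal protein probes that changed were mostly higher in PFGC. Of the 78 tested probes, 29 were higher (37.2%), 2 were lower and 47 did not pass the test, with a median difference of 0.19 on the log2 scale (limma over all 9 arrays, Benjamini-Hochberg adjusted p under 0.05 across all tested probes). Over all tested probes, 21.9% were higher and 26.2% lower, 48.1% in either direction, with a median of -0.07. All 29 higher members but Rpl36al and Rps19bp1 were subunit probes, and both lower members, Rps4l and Rpl3l, were paralogues. The 70 subunit probes ran from -0.17 to 1.69 with a median of 0.24. Counted by the brightest probe of each gene, 18 of 57 genes were higher (31.6%) and 2 lower (3.51%), beside 24.5% and 27.6% of all genes when 1 probe per gene was fitted.

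Oocytes against SSC gave similar counts. Of the 78 probes, 29 were higher in oocytes, 4 were lower and 45 did not pass the test, with a median of 0.29. Over all tested probes, 27.3% were higher, 30.3% lower and 57.6% changed in either direction, with a median of -0.05. The lower members were Rps4l, Rpl3l, Rps27l and 1 of 3 tested probes for Rpl23. By the brightest probe of each gene, 19 of 57 genes were higher (33.3%) and 4 lower (7.02%), beside 28.6% and 33.1% of all genes. The share of genes higher was thus near that of all genes. Both comparisons use the same 3 SSC arrays, so their values stand side by side and do not support each other.

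PFGC and oocytes differed little in these genes. Only 2 of 78 probes passed the test, Rps4l and Rpl3l, both higher in PFGC, where 9.17% of all tested probes passed, 5.54% higher and 3.63% lower. None of the 70 subunit probes passed in limma, 3 had an unadjusted p under 0.05, and 1 was lower when the replicate number was a block. Their differences ran from -0.57 to 0.33 around a median of -0.01. A probe of median precision had a standard error of 0.12, so small differences in single genes were not detectable with 3 arrays per group. By the brightest probe of each gene, 2 of 57 genes were higher in PFGC (3.51%) and none lower, beside 7.96% and 4.3% of all genes.

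**Figure D2:**
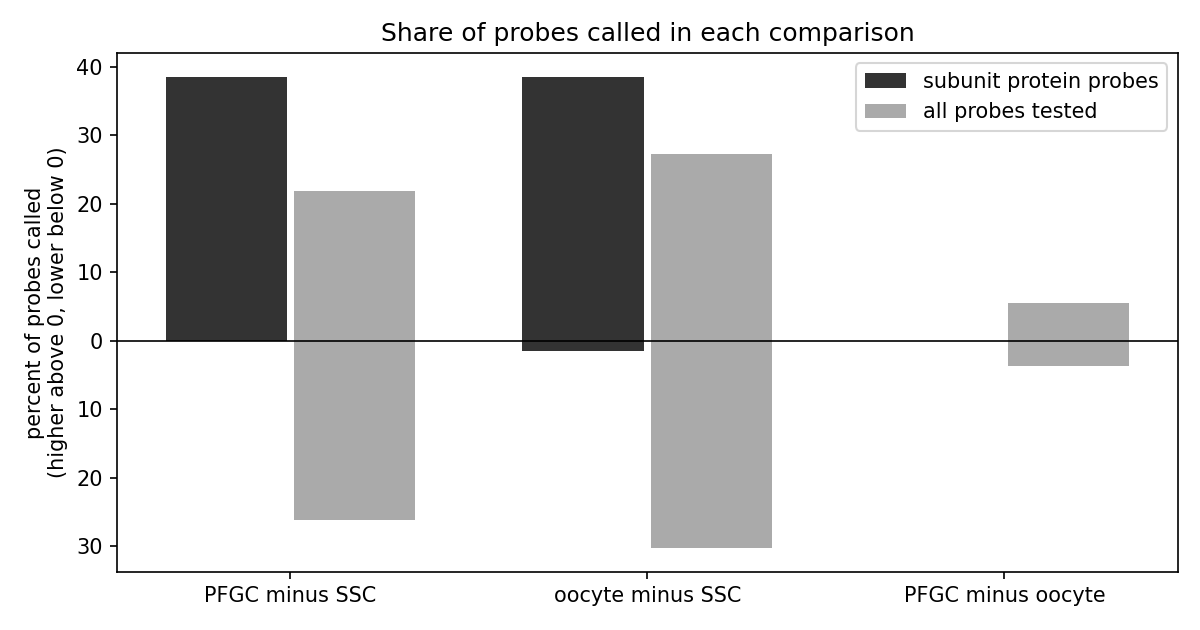
Percentage of probes called higher or lower (adjusted p under 0.05, limma) in each comparison, for the 70 subunit probes and for all tested probes. In both comparisons with SSC 38.6% of subunit probes were higher, against 21.9% and 27.3% of all probes, and between PFGC and oocytes no subunit probe was called.

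Among large-subunit probes, 18 of 42 were higher in PFGC than in SSC, with none lower and a median of 0.31, and 18 were higher and 1 lower in oocytes than in SSC, with a median of 0.32. The share higher was 42.9% in each, beside 21.9% of all tested probes in PFGC and 27.3% in oocytes. Rpl4, whose protein reaches into the peptide exit tunnel, had levels of 10.84, 10.79 and 10.93 in PFGC, 11.00, 11.22 and 11.11 in oocytes, and 9.69, 9.20 and 9.64 in SSC. All 6 arrays of sorted cells lay above the SSC arrays. The signal of Rpl4 was 2.53-fold higher in PFGC than in SSC (log2 difference 1.34 ± 0.15, SE, n = 3 arrays each, adjusted p = 4.01e-05 in limma's fit). In oocytes it was 3.03-fold higher (1.60 ± 0.15, adjusted p = 7.24e-06). These values come from the only tested probe for Rpl4, and its other probe was detected on no array.

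Rpl13a, a large-subunit protein that in human monocytes also leaves the ribosome to silence inflammatory messages, had levels of 11.72, 11.59 and 11.54 in PFGC, 11.53, 11.64 and 11.60 in oocytes, and 10.47, 10.69 and 10.50 in SSC. The groups of sorted cells overlapped each other and neither overlapped SSC. Its signal was 2.08-fold higher in PFGC (1.06 ± 0.12, adjusted p = 4.13e-05) and 2.05-fold higher in oocytes (1.04 ± 0.12, adjusted p = 3.15e-05, limma).

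All 3 probes for Rpl21 were higher in both sorted groups. The brightest of the 3 had levels of 7.61, 7.52 and 7.86 in PFGC, 7.69, 7.82 and 7.79 in oocytes, and 6.61, 6.27 and 6.77 in SSC. Its log2 difference was 1.11 in PFGC (adjusted p = 0.00018) and 1.22 in oocytes (adjusted p = 6.58e-05, limma). The other probes for Rpl21 gave 0.77 and 0.78 in PFGC, and 0.75 and 0.78 in oocytes.

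Rpl22, whose loss in mice impairs T cell development, had levels of 11.27, 11.34 and 11.31 in PFGC, 11.31, 11.22 and 11.25 in oocytes, and 10.79, 10.80 and 10.98 in SSC. It was higher by 0.45 in PFGC (adjusted p = 0.00686) and by 0.40 in oocytes (adjusted p = 0.00995, limma), with no overlap with SSC. The call of Rpl22 in PFGC was ended by 1 alternative setting, no normalization between arrays (0.34, adjusted p = 0.162, limma). Rpl3, which lines the peptidyl transferase centre, had levels of 14.28, 14.18 and 14.45 in PFGC, 14.32, 14.15 and 14.51 in oocytes, and 14.02, 14.18 and 14.54 in SSC. Its differences of 0.06 and 0.08 from SSC did not pass the test, and its 3 groups overlapped.

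Among small-subunit probes, 9 of 28 were higher in PFGC than in SSC (32.1%) and 9 were higher in oocytes, with none lower, and the medians were 0.16 and 0.23. Over all tested probes 21.9% and 27.3% were higher, so the share in oocytes was near that of all probes. Rps15a had the largest difference of any subunit probe. Its levels were 8.30, 8.16 and 8.12 in PFGC, 8.65, 8.74 and 8.72 in oocytes, and 6.35, 6.21 and 6.97 in SSC. The 3 groups did not overlap, with SSC lowest and oocytes highest. The signal of Rps15a was 3.22-fold higher in PFGC than in SSC (1.69 ± 0.18, adjusted p = 3.47e-05) and 4.58-fold higher in oocytes than in SSC (2.20 ± 0.18, adjusted p = 3.25e-06, limma). Between PFGC and oocytes its difference was -0.51 ± 0.18, which did not pass (adjusted p = 0.107, limma).

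Rps6, the small-subunit protein phosphorylated by the S6 kinases, had levels of 14.06, 14.05 and 13.90 in PFGC, 14.06, 13.98 and 14.05 in oocytes, and 13.32, 13.56 and 13.40 in SSC. It was higher by 0.57 ± 0.12 in PFGC (adjusted p = 0.00223) and by 0.60 ± 0.12 in oocytes (adjusted p = 0.00124, limma), with no overlap with SSC. Rps3, which lies at the messenger RNA entry channel, was read by a pair of probes. The dimmer had levels of 11.71, 11.96 and 12.32 in PFGC, 11.71, 11.70 and 12.35 in oocytes, and 11.20, 11.32 and 11.47 in SSC. The brighter averaged 14.05 ± 0.06 in PFGC, 14.06 ± 0.09 in oocytes and 13.54 ± 0.10 in SSC (SD, n = 3 arrays each), and neither probe overlapped between SSC and the sorted groups. The brighter was higher by 0.50 in PFGC (adjusted p = 0.00455) and by 0.52 in oocytes (adjusted p = 0.00289, limma), and the dimmer probe was higher by 0.67 and by 0.59, calls that 2 and 4 alternative settings ended.

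Rps19, the gene most often mutated in human Diamond-Blackfan anaemia, was also read by a pair of probes. The brighter had levels of 15.00, 14.88 and 14.92 in PFGC, 14.90, 15.07 and 14.91 in oocytes, and 14.94, 14.90 and 14.83 in SSC, and its groups overlapped throughout. The dimmer probe of Rps19 had levels of 7.01, 6.62 and 6.66 in PFGC, 7.27, 7.42 and 7.30 in oocytes, and 7.25, 7.00 and 6.55 in SSC. It was lower in PFGC than in oocytes by -0.57, which did not pass (adjusted p = 0.0827, limma) and passed with the replicate number as a block (adjusted p = 0.0424). Of the 11 tested genes mutated in the human disease, Rps15a was the only one called in either comparison with SSC, by the brightest probe of each gene. That is 9.09% higher, beside 23.7% of all genes in PFGC and 28.1% in oocytes by the same count. The count depends on the probe chosen, since dimmer probes of Rpl31 and Rps24, also of this list, were higher in both comparisons.

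Further subunit calls of modest size are named here after their values were seen. Larger calls, for dimmer probes of Rpl31, Rpl23 and Rpl27a, are given further below beside the brighter probes of these genes. Rpl9, a large-subunit protein, had levels of 14.95, 15.06 and 14.86 in PFGC, 15.05, 15.09 and 15.08 in oocytes, and 14.64, 14.58 and 14.70 in SSC. It was higher by 0.32 in PFGC (adjusted p = 0.035) and by 0.44 in oocytes (adjusted p = 0.0061, limma), with no overlap with SSC. Both probes of Rpl28 were higher, by 0.38 and 0.46 in PFGC and by 0.47 and 0.30 in oocytes. Rps13 was higher by 0.44 in PFGC and by 0.47 in oocytes for its brighter probe, Rps15 by 0.46 and 0.42, and Rps9 by 0.48 and 0.55 for its dimmer probe. Rpl19 passed only in PFGC (0.42, adjusted p = 0.0315, against 0.34 and 0.0677 in oocytes), and the brighter probe of Rpl29 passed only in oocytes (0.71, adjusted p = 0.0125, against 0.47 and 0.0865 in PFGC, limma). For neither gene did PFGC and oocytes differ past the test.

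Several very bright members, named after their values were seen, gave differences near 0 with narrow intervals. Rps2 differed from SSC by -0.00 in PFGC (95% interval -0.24 to 0.24) and by 0.06 in oocytes (-0.18 to 0.30) for its brighter probe. Rps7 differed by 0.02 (-0.29 to 0.33) and 0.01 (-0.29 to 0.32). Rpl41, the smallest ribosomal protein, differed by -0.11 (-0.37 to 0.14) and -0.16 (-0.42 to 0.09). All of these intervals include 0 and small differences in either direction, so they do not show that the levels were equal.

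The stalk proteins, which bring elongation factors to the ribosome, did not pass the test in any comparison. Rplp1 had levels of 15.19, 14.96 and 15.12 in PFGC, 14.99, 14.99 and 15.10 in oocytes, and 15.10, 15.15 and 15.15 in SSC. Its difference from SSC was -0.04 in PFGC (95% interval -0.29 to 0.20) and -0.10 in oocytes (-0.35 to 0.15). Rplp2 gave -0.09 (-0.35 to 0.18) and -0.02 (-0.29 to 0.24).

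Rplp0, the scaffold of the stalk, depended on the array number. Its levels were 8.64, 8.90 and 9.32 in PFGC, 8.74, 8.88 and 9.24 in oocytes, and 8.18, 8.27 and 8.87 in SSC, with the array numbered 3 highest in each group. The difference was 0.52 in PFGC (adjusted p = 0.0883, limma) and 0.51 in oocytes (adjusted p = 0.0803). With the replicate number as a block the adjusted p of Rplp0 was 0.0026 and 0.00209.

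Other members followed the array number as well, in both directions, and are named after their values were seen. Rps3a1 had levels of 9.50, 9.55 and 10.30 in PFGC, 9.81, 9.90 and 10.73 in oocytes, and 9.23, 8.85 and 10.03 in SSC. Rpl7a had levels of 12.60, 12.48 and 12.02 in PFGC, 12.95, 13.00 and 12.15 in oocytes, and 12.59, 12.52 and 11.61 in SSC. The arrays numbered 3 were thus the highest of their groups for Rps3a1 and the lowest for Rpl7a. With the block, Rps3a1 passed in PFGC (0.41, adjusted p = 0.0204) and in oocytes (0.78, adjusted p = 0.00073), and Rpl7a passed in oocytes (0.46, adjusted p = 0.00934).

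In all, 34 members were higher and 2 lower in PFGC with the block, where 25.3% of all tested probes were higher and 31.6% lower. In oocytes 36 were higher and 4 lower with the block, beside 30.7% and 34.2% of all probes. The calls gained by the block in PFGC were for Rpl24, Rpl29, Rpl38, Rplp0 and Rps3a1. In oocytes they were for Rpl19, Rpl22l1, Rpl24, Rpl7a, Rplp0, Rps3a1 and Rps9. Without the 3 arrays numbered 3, 32 members were higher and 2 lower in PFGC, beside 22.8% and 27.2% of all probes, and 35 were higher and 4 lower in oocytes, beside 28.8% and 31% of all probes.

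The X-linked subunit genes Rps4x, Rpl36a and Rpl39 each had 1 tested probe, and all 3 were higher in both sorted groups. Rps4x had levels of 14.69, 14.67 and 14.62 in PFGC, 14.67, 14.83 and 14.69 in oocytes, and 13.98, 13.74 and 14.12 in SSC. Rpl39, a small protein of the exit tunnel, had levels of 14.04, 14.12 and 14.09 in PFGC, 13.94, 13.92 and 14.19 in oocytes, and 13.44, 13.49 and 13.48 in SSC. Rpl36a had levels of 13.00, 12.95 and 13.13 in PFGC, 13.11, 12.97 and 13.25 in oocytes, and 12.50, 12.52 and 12.56 in SSC. In all 3 genes the SSC arrays lay below the other 6.

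The difference of Rps4x was 0.71 ± 0.13 in PFGC (adjusted p = 0.00108) and 0.78 ± 0.13 in oocytes (adjusted p = 0.000425, limma). Rpl39 gave 0.62 and 0.55, and Rpl36a gave 0.50 and 0.58, and all 4 of these passed the test. Of the 67 autosomal subunit probes, 24 were higher in each comparison (35.8%), with medians of 0.20 and 0.30. Of all tested autosomal probes, 22% were higher in PFGC and 27.2% in oocytes. Over all 565 tested probes of the X chromosome, 121 were higher and 212 lower in PFGC with a median of -0.18, and 146 were higher and 202 lower in oocytes with a median of -0.10. With 3 genes, the counts are too few to set the X-linked members apart from the autosomal ones, and the difference between the sets was not tested.

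The paralogues Rps4l and Rpl3l went the other way. Rps4l had levels of 9.73, 10.15 and 10.18 in PFGC, 8.87, 8.90 and 9.02 in oocytes, and 11.33, 11.33 and 11.14 in SSC. The 3 groups did not overlap, and PFGC lay between oocytes and SSC. Its signal was 2.37-fold lower in PFGC than in SSC (-1.25 ± 0.14, adjusted p = 5.77e-05) and 5.06-fold lower in oocytes than in SSC (-2.34 ± 0.14, adjusted p = 3.72e-07, limma). It was 2.13-fold higher in PFGC than in oocytes (1.09 ± 0.14, adjusted p = 0.00149, limma).

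Rpl3l, which replaces Rpl3 in striated muscle ribosomes, had levels of 5.54, 5.81 and 5.96 in PFGC, 4.54, 4.63 and 4.61 in oocytes, and 7.81, 7.68 and 7.59 in SSC. It was detected on all PFGC and SSC arrays and on no oocyte array, so oocytes give only a bound. The signal of Rpl3l was 3.79-fold lower in PFGC than in SSC (-1.92 ± 0.13, adjusted p = 1.56e-06, limma). It was at least 5.61-fold lower in oocytes than in SSC (adjusted p = 2.73e-08) and at least 1.48-fold higher in PFGC than in oocytes (adjusted p = 0.000568, limma). Each bound takes, for every oocyte array, the higher of the probe's own signal and the lowest signal among detected probes.

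Rps4l and Rpl3l ran in the same order over the groups as the Sertoli cell markers, whose mean level on an array was 9.41 to 9.90 in PFGC, 6.50 to 6.66 in oocytes and 11.58 to 11.71 in SSC. The mean level of the spermatogonial markers ran likewise, at 6.52 to 6.92 in PFGC, 5.59 to 5.77 in oocytes and 8.35 to 8.63 in SSC. Single markers did not all follow this order. The Sertoli marker Rhox5 was higher in PFGC than in SSC (0.68, adjusted p = 0.0104, limma). Between PFGC and oocytes, 5 of the 10 spermatogonial markers were higher in PFGC and 5 did not pass, with a lowest difference of -0.27. Of the 8 Sertoli markers, Dhh and Defb36 were detected on no oocyte array, and of the 10 spermatogonial markers Gfra1 and Nanos3 were detected on none. The part of either cell type in the levels of Rps4l and Rpl3l was not tested. In such bulk RNA, fewer cells of a type and less RNA per cell cannot be told apart.

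The other paralogues moved little. Rps27l, a target of p53, had levels of 13.76, 13.68 and 13.42 in PFGC, 13.27, 13.40 and 13.32 in oocytes, and 13.84, 14.06 and 13.44 in SSC. It was lower in oocytes than in SSC (-0.45 ± 0.17, adjusted p = 0.0395, limma) and did not pass in PFGC (-0.16). The SSC array numbered 3 lay just above the highest oocyte array, and 12 of the alternative settings ended the call in oocytes.

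Rpl36al, an autosomal copy of Rpl36a, was higher by 0.30 in PFGC (adjusted p = 0.0459) and by 0.28 in oocytes (adjusted p = 0.0492, limma), and 11 and 10 alternative settings ended these calls. Rpl7l1 did not pass with either probe in either comparison with SSC. Rpl22l1 differed by 0.19 in PFGC and by 0.43 in oocytes, where only the fit with the replicate number as a block (adjusted p = 0.0354) and the fit with array weights called it. Rps19bp1, which binds Rps19 and is not part of the ribosome, was higher by 0.47 in PFGC (adjusted p = 0.00498) and by 0.31 in oocytes (adjusted p = 0.0329, limma), and 1 and 8 alternative settings ended these calls.

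Within the subunit genes, the size of the difference went with the brightness of the probe. Brightness bands were set after the values were seen. Of the 23 subunit probes with a mean level under 12, 16 were higher in PFGC than in SSC, with a median of 0.71. Of the 15 between 12 and 14, 7 were higher, with a median of 0.43, and of the 32 at 14 and over, 4 were higher, with a median of 0.05. In oocytes the same counts were 16, 7 and 4 higher, with 1 lower at 14 and over, and the medians were 0.75, 0.46 and 0.06.

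Among all tested probes the bands differed less: in PFGC against SSC 4234 of 19280 were higher under 12, 114 of 526 between 12 and 14, and 16 of 128 at 14 and over. In oocytes against SSC they were 5282 of 19280 (27.4%), 139 of 526 (26.4%) and 23 of 128 (18%). At 14 and over, the 4 of 32 subunit probes (12.5%) were thus at the share of all probes in PFGC (12.5%) and below it in oocytes. The 32 are themselves part of the 128 probes, so these shares are not independent. Across the 70 subunit probes, level and difference had a Spearman correlation of -0.64 for PFGC minus SSC and -0.72 for oocytes minus SSC, against 0.08 and 0.03 across all tested probes. These are descriptions across probes that share arrays and, for some, a gene. The brightest signal among members on an array ran from 32280 to 41600, and on 3 arrays a member had the highest signal of all probes. Whether the scale of the arrays compresses differences among such bright probes was not tested.

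**Figure D3:**
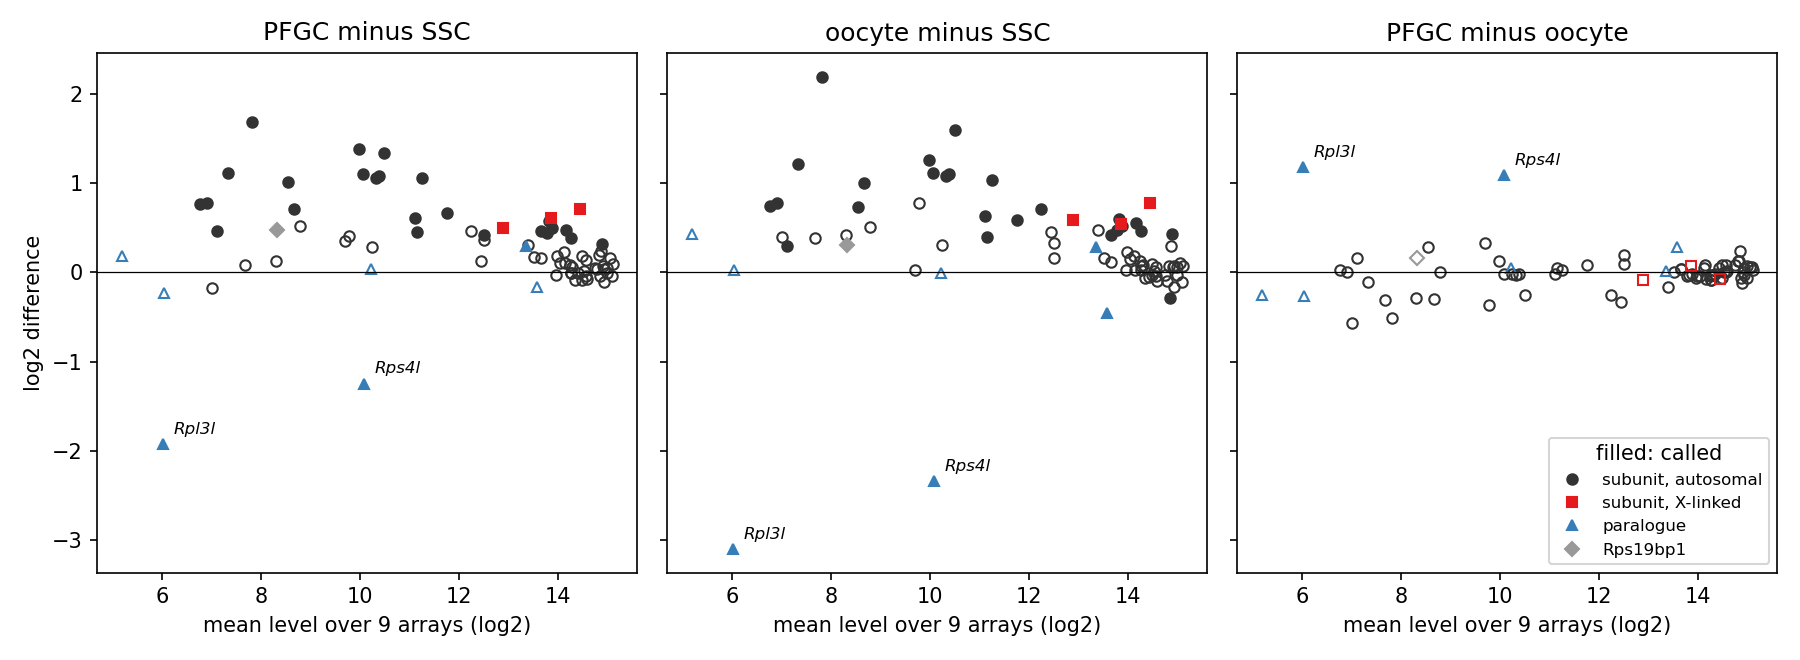
Difference between groups (log2) of each tested member probe against its mean level over the 9 arrays (log2), with a panel for each comparison. Autosomal and X-linked subunit probes, paralogues and Rps19bp1 have separate symbols, filled where called. Against SSC, differences of subunit probes above 1 occur only at levels under 12. Those at 14 and over lie between -0.29 and 0.78, with medians of 0.05 in PFGC and 0.06 in oocytes, and Rps4x is highest among them.

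Probes for the same gene often disagreed. Of 16 genes with more than 1 tested probe (37 probes), all probes were higher in PFGC for 4 genes, none passed for 6, and 6 had called and uncalled probes side by side. In oocytes against SSC the counts were 4, 5 and 7. Rpl31, a protein near the tunnel exit, was among the genes with called and uncalled probes in both comparisons. Its probe of mean level 9.98 had levels of 10.46, 10.48 and 10.51 in PFGC, 10.21, 10.33 and 10.54 in oocytes, and 9.01, 9.05 and 9.25 in SSC. Its probe of mean level 14.11 had levels of 14.14, 14.35 and 14.12 in PFGC, 14.08, 14.23 and 14.16 in oocytes, and 13.99, 13.96 and 13.96 in SSC.

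The dim probe of Rpl31 was 2.61-fold higher in PFGC (1.38 ± 0.13, adjusted p = 1.09e-05) and 2.39-fold higher in oocytes (1.26 ± 0.13, adjusted p = 1.36e-05, limma). The bright probe differed by 0.23 and 0.18 and did not pass. The remaining probe for Rpl31, of level 10.32, was higher by 1.06 and 1.09.

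Rpl23, which in stressed cells binds the p53 ligase Mdm2, gave opposite calls. Its probe of level 10.07 had levels of 10.49, 10.27 and 10.54 in PFGC, 10.39, 10.53 and 10.41 in oocytes, and 9.24, 9.14 and 9.59 in SSC. It was higher by 1.11 in PFGC (adjusted p = 0.00014) and by 1.12 in oocytes (adjusted p = 8.68e-05, limma). Its probe of level 14.84 had levels of 14.97, 14.86 and 14.89 in PFGC, 14.62, 14.58 and 14.79 in oocytes, and 14.95, 14.93 and 14.96 in SSC. The bright probe of Rpl23 was lower in oocytes by -0.28 (adjusted p = 0.0471, limma), a call that 12 alternative settings ended, in 1 of which the sign turned.

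Rpl27a gave the same contrast, with a difference of 1.08 in PFGC and 1.10 in oocytes for its probe of level 10.38, and between -0.09 and 0.10 for its brighter probes in both comparisons. Rps24, named after its values were seen, had 1.02 and 0.73 for its probe of level 8.55, 0.03 and -0.09 for the probe at 14.79, and 0.13 and 0.42, not called in either comparison, for the remaining tested probe at 8.29. In contrast, both probes of Rpl30 were higher in both comparisons, by 0.61 and 0.71 in PFGC and by 0.63 and 1.01 in oocytes. The dimmest probe had a larger difference than the brightest in 9 of the 16 genes in each comparison with SSC. It did so in 9 as well between PFGC and oocytes, where no probe of these genes was called. Rps13 ran the other way in PFGC against SSC, at 0.44 for its brighter probe and 0.08 for its dimmer one. The median range of differences within a gene was 0.26 in PFGC and 0.29 in oocytes against SSC. No probe sequence was aligned, and ribosomal protein genes have many near-identical pseudogene copies, so a probe may read more than its named gene or only some of its transcripts.

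**Figure D4:**
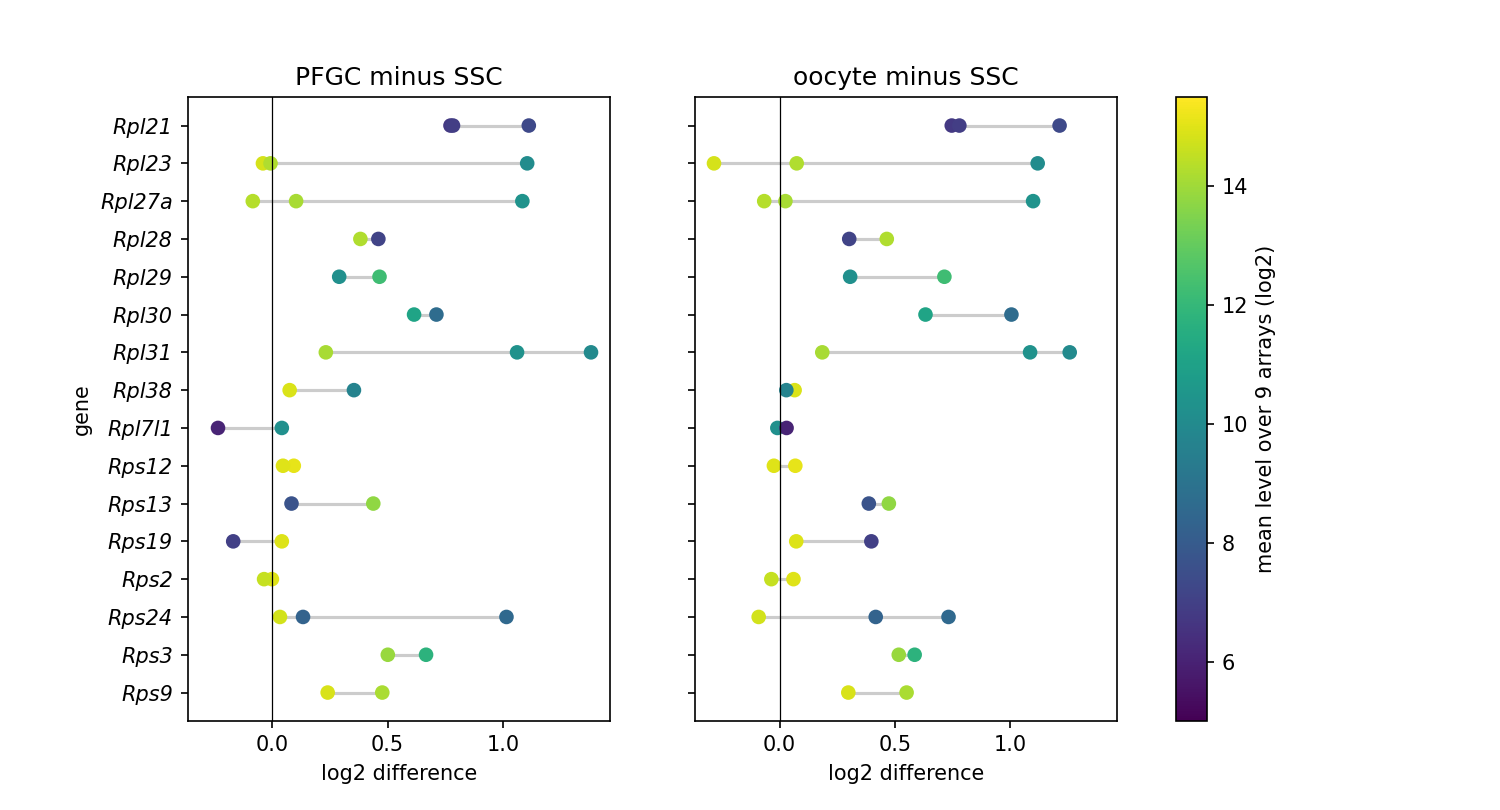
Differences (log2, PFGC minus SSC and oocyte minus SSC) of the probes of the 16 genes with more than 1 tested probe, each point a probe, coloured by its mean level over the 9 arrays. Within Rpl31, Rpl23, Rpl27a and Rps24 the brightest probe lies near 0 and a dimmer one far above it, whereas the probes of Rpl21 and Rpl30 are all above 0.

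Genes that serve the ribosome were counted by the brightest probe of each, from the fit of all probes. By the same count over all 11077 genes, 23.7% were higher and 26.8% lower in PFGC than in SSC, 28.1% higher and 32.4% lower in oocytes than in SSC, and 6.8% higher and 3.3% lower in PFGC than in oocytes. Of 32 ribosome biogenesis factors, 9 were higher (28.1%) and 3 lower (9.38%) in PFGC than in SSC, and 15 were higher (46.9%) and 3 lower (9.38%) in oocytes. The share higher in PFGC was near that of all genes. Gnl3, the nucleolar GTPase nucleostemin, was at 9.02 ± 0.12 in PFGC, 9.53 ± 0.12 in oocytes and 7.68 ± 0.16 in SSC (SD, n = 3 arrays each). It was 2.53-fold higher in PFGC (adjusted p = 1.8e-05) and 3.61-fold higher in oocytes (adjusted p = 1.04e-06, limma). Of 22 subunits and factors of RNA polymerases I and III, which transcribe ribosomal RNA, 4 were higher (18.2%) and 7 lower (31.8%) in PFGC, and 4 were higher (18.2%) and 8 lower (36.4%) in oocytes, with the shares lower near those of all genes. Polr3g, a polymerase III subunit abundant in human pluripotent stem cells, was 3.08-fold lower in PFGC (adjusted p = 3.54e-06) and 4.01-fold lower in oocytes (adjusted p = 4.46e-07, limma).

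Of 28 translation initiation factors, 7 were higher (25%) and 5 lower (17.9%) in PFGC, where the share higher was near that of all genes, and 11 were higher (39.3%) and 5 lower (17.9%) in oocytes. Eif2s2, the beta subunit of the factor that carries the initiator tRNA, was 2.94-fold higher in PFGC (adjusted p = 1.73e-05) and 3.33-fold higher in oocytes (adjusted p = 4.96e-06, limma). Of 10 elongation and termination factors, 2 were higher in PFGC (20%, near the share of all genes) and 5 in oocytes (50%), with none lower. Etf1, the release factor, was higher by 1.05 in PFGC (adjusted p = 0.000143) and by 1.27 in oocytes (adjusted p = 2.49e-05, limma). Of 18 other genes whose messenger RNAs carry a TOP tract, 5 were higher in PFGC (27.8%, near the share of all genes) and 9 in oocytes (50%), with none lower. Nap1l1, a histone chaperone of that class, was higher by 0.72 in both (adjusted p = 0.00161 in PFGC and 0.00119 in oocytes, limma).

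Of 23 regulators of ribosomal protein synthesis, 8 were higher (34.8%) and 7 lower (30.4%) in PFGC, and 8 were higher (34.8%) and 9 lower (39.1%) in oocytes, with the share lower in PFGC near that of all genes. Myc, which drives ribosome production in many cells, was at 8.05 ± 0.19 in PFGC, 8.30 ± 0.07 in oocytes and 9.63 ± 0.21 in SSC (SD, n = 3 arrays each). It was 2.99-fold lower in PFGC (adjusted p = 1.21e-05) and 2.51-fold lower in oocytes (adjusted p = 2.75e-05, limma). Its relative Mycl was 4.57-fold higher in PFGC (adjusted p = 1.6e-07) and 4.97-fold higher in oocytes (adjusted p = 5.86e-08, limma). Between PFGC and oocytes, 3 genes of these lists passed the test: Gnl3, Ipo7 of the TOP list and Larp4 of the regulators, all lower in PFGC, while 7 alternative settings ended the call for Gnl3 and 10 that for Larp4.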

How the data were processed

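Total RNA of 9 samples was hybridised to single-colour Illumina arrays. GenomeStudio is the tool that the submitters' processing notes name, without a version. For every probe on every array, the deposited non-normalized table has a linear intensity and, beside it, the detection p-value, per the file headers. The authors' processed intensity table, linear and with 1 distribution shared by all arrays, served as an alternative, and its method is not stated. Probe symbols came from the platform annotation, updated through Entrez identifiers in a RefSeq table of GRCm38.p6 (34807 of 34885 singly named probes matched, 10378 probes unnamed here and 18 with several symbols, from which none was named). Promoter sequences are RefSeq's, of the same assembly.

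With limma 3.58.1 under R 4.3.3, a normal-exponential background correction was fitted from the detection p-values (offset 16), and quantile normalisation and log2 followed. Probes with a detection p-value under 0.01 on at least 3 of 9 arrays were tested in 1 fit of all arrays, two-sided, with Benjamini-Hochberg adjustment over all 19934 probes and calls at 0.05. The probe was the unit. Probes named by rule were the 8 largest calls per direction and comparison without overlap of the groups, fixed genes (the stalk, Rps3, Rps6, Rps19, Rpl4, X-linked members and paralogue pairs), and up to 4 genes per list. Other members described in the text, such as Rps12, Rps2, Rps7, Rpl41 and Rpl30, were picked after their values were seen. The members and lists were chosen with earlier results of these data known.

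In 5 simulated draws of PFGC against SSC with 19934 probes, 42 to 68 of 100 probes changed by 1 log2 unit were recovered, 2 to 9 of 100 changed by 0.5 log2 units were, and 0 to 7 false calls were made per draw. No other probes were changed in a draw, whereas 48.1% of tested probes were called in the data. The adjusted threshold was therefore stricter in the draws, and these recoveries do not carry over to the reported fit. Arrays of the same number deviated together from their group means (all 9 pairs, correlations of 0.136 to 0.564). The arrays numbered 3 stood apart, at 0.404 to 0.564 with each other. Between groups, array 1 with array 2 gave 0.085 to 0.246, which overlapped the 0.136 to 0.304 of same-number pairs of these arrays. A pairing of arrays 1 and 2 by number is therefore not shown. The number was used as a block on these values from the data and not from the labels. No pair of arrays shared more than 1 identical signal. Alternatives changed the background correction, the scaling between arrays, the detection filter, the unit, the fit and the arrays used. The headers give no chip or position, so a chip block was not run.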

Additional observations from a re-analysis of the deposited data

How the results depend on the processing

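Across 24 alternative settings, 170 of 216 counts and medians of the member probes stayed within 1.5 times the reported count or within the spread between replicates (0.024 for a median, on the log2 scale). For PFGC minus SSC the median of 0.19 was 0.34 with 75th percentile scaling, 0.31 with that scaling and no background correction, 0.28 with no normalization between arrays, 0.24 with cyclic loess, 0.23 with array weights, 0.23 over probes detected on all 9 arrays, 0.13 with no filter and 0.24 without the 3 arrays numbered 3. Leaving out single arrays gave 0.20 to 0.24. The count higher was 18 with 1 probe per gene, since fewer probes were tested, and the count lower was 1 over probes detected on all 9 arrays.

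For oocytes minus SSC the median of 0.29 was 0.16 with 1 probe per gene, 0.36 with 75th percentile scaling, 0.25 with array weights, 0.20 with the authors' processed values, 0.20 with no background correction, 0.23 with an offset of 50, 0.11 with no filter, 0.52 with no normalization between arrays and 0.21 without the 3 arrays numbered 3, and 0.22 to 0.29 leaving out single arrays. The count higher was 19 with 1 probe per gene and 44 with 75th percentile scaling and no background correction. The count lower was 2 with that setting, with 75th percentile scaling, with no normalization and in a fit of the 2 groups alone, and 2 to 3 leaving out single arrays, with 2 without SSC array 1 or 2, PFGC array 2 or oocyte array 1 or 2. Normalization between arrays moved the median of all probes: without it that median was -0.14 for PFGC minus SSC, 0.10 for oocytes minus SSC and -0.27 for PFGC minus oocytes.

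For PFGC minus oocytes the median of 0.00 was -0.24 with no normalization and -0.028 with 75th percentile scaling and no background correction. The count higher was 1 over probes detected on all 9 arrays. The count lower, 0 as reported, was 3 with array weights, 2 with no normalization, in a fit of the 2 groups alone and with 75th percentile scaling without background correction, 1 with the authors' processed values, with no background correction and with the replicate block, and 0 to 2 leaving out single arrays, with 2 without SSC array 3. Of 2997 values for 126 named probe results, 92 lost a call, 19 gained one and 1 turned round. That one was the bright probe of Rpl23 in oocytes minus SSC, at 0.042 (adjusted p = 0.859, limma) with no normalization. Sign changes among differences that were not called were not counted. The 75th percentile scaling without background correction and the fits without the arrays numbered 3 were added after seeing the data. The cause of these shifts was not tested. With the replicate block, 34 members were higher and 2 lower in PFGC, and 36 higher and 4 lower in oocytes; it ended no call of a named member. Probes near the detection limit and small differences in single genes are limited by 3 arrays per group.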
